A study of Mus musculus with 21 samples.

Results

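The rows described here are those of the deposited expression table whose symbols begin with Hist1h, Hist2h, Hist3h or Hist4h, most of them canonical histone genes. The table had 20900 gene rows, and 61 met this rule, all under the older Hist symbols. By protein class they were 6 linker histone H1 genes, 16 H2A genes, 17 H2B genes, 10 H3 genes and 12 H4 genes. The H2B rows include 1 annotated pseudogene, Hist3h2bb-ps, which was too low to be tested. Poly(A) RNA had been sequenced in E14 cells, a mouse embryonic stem cell line of the 129 strain, grown with leukaemia inhibitory factor. Cells were plated the day before, and their medium was then replaced by medium with 1 µM BMH-21 or 1 µM CX-5461, which both inhibit RNA polymerase I, for 2, 4 or 8 h. The 3 control libraries (0 h) were shared by both inhibitors, so that 7 groups of 3 made up 21 libraries, and no control was kept without inhibitor for 2, 4 or 8 h. Nothing in the labels says that the replicates were separate cultures, so p-values measure the spread between these libraries, which may be technical.

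Canonical histone genes supply the histones that package newly copied DNA. They are switched on in S phase by NPAT, an activator that gathers at histone locus bodies, and their transcripts normally end not in a poly(A) tail but just after a conserved stem-loop. The stem-loop binding protein SLBP holds this hairpin, and the U7 small nuclear ribonucleoprotein guides the cut that follows it. A poly(A) library therefore holds only the part of histone RNA that was polyadenylated, carried over or primed at internal A-rich stretches, and a level below does not give the total histone mRNA of the cells. Polyadenylated forms are known for some canonical genes, in cells that leave the cycle or that lack parts of the 3′ processing machinery.

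The stem-loop sites are shown because they mark where the normal transcript of each gene ends. In the GENCODE M21 transcripts (GRCm38, the mm10 build), 28 of the 61 genes matched a stem-loop pattern with CTTTTCAG fixed in its middle, and 33 did not. A hairpin with other bases there, or past the end of the annotated transcript, would be missed. The capitals mark the 16-base stem-loop, with 5 bases on each side in lower case. The form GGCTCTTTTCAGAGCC was found in 22 genes of the H1, H2A, H2B and H3 classes, and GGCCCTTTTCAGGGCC in 6 genes of the H4 class. The sites below belong to genes to which the results return, with an H3 and an H4 gene for comparison.
Hist3h2ba: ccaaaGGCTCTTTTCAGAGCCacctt
Hist3h2a: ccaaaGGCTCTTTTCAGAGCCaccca
Hist1h1c: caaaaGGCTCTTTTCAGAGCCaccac
Hist1h2ac: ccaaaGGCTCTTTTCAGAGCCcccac
Hist1h2ag: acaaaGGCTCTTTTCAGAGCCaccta
Hist1h3a: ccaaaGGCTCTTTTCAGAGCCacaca
Hist1h4d: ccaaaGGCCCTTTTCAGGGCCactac
The annotated transcript of Hist1h2ag ran on for 23 bases past this hairpin and that of Hist1h3a for 37. In 14 of the 28 genes it ran on for more than 100 bases, by 169 bases in Hist3h2ba, 1643 in Hist3h2a, 840 in Hist1h1c, 2010 in Hist1h2ac and 770 in Hist1h4d. Of these 14 genes, 10 had the poly(A) signal AATAAA or ATTAAA in the extension. In 58 of the 61 genes no annotated transcript had an intron, the exceptions being Hist1h2bc, Hist1h2be and Hist1h2bp. By position, 50 genes lay on chromosome 13, 7 on chromosome 3, 3 on chromosome 11 and 1 on chromosome 6.

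The libraries held 46604397 to 62812641 reads, recovered as whole reads from the table. The deposited values carried a shift common to most genes, which relative to control was -0.09, -0.2 and -0.39 (log2) for BMH-21 at 2, 4 and 8 h, while for CX-5461 it was -0.18, -0.26 and 0.1. Each library was therefore moved by the median difference of its genes, and levels below are log2 RPM (reads per 1000000 reads of the library) on that scale. A level of 0 stands for about 1 RPM. Of the 61 genes, 19 had deposited values above 0 in all 21 libraries, 17 in 3 to 20 libraries, 8 in 1 or 2 and 17 in none. Genes above 0 in at least 3 libraries were tested, which kept 36 of the 61 and 14666 of all 20900. Some of the 36 met this only through a few groups (Hist2h2ab was above 0 in 3 control, 2 BMH-21 2 h and 1 BMH-21 4 h libraries), so counts over the 36 describe them and are not support for a trend of all 61. The summed level of 8 stem cell marker genes, all tested, was 12.51 to 12.53 in control, 11.65 to 11.86 at 8 h of BMH-21 and 12.18 to 12.21 at 8 h of CX-5461. Such a sum mostly follows the most abundant markers. At a limma adjusted p under 0.05, 0 were higher and 7 lower at 8 h of BMH-21, with a median log2 fold change of -1.267. At 8 h of CX-5461, 1 was higher and 6 lower, with a median of -0.405. The shares of all genes lower were 41.8% and 33.9%.

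Many of these genes share much of their sequence, so that their reads may not tell them apart. Genes were placed together where at least 50% of the 50-base windows of the shorter coding sequence were also in the other gene, directly or through another gene, which made groups of 11 H2B, 10 H2A, 9 H3 and 6 H4 genes. The labels do not say how reads that map to several genes were counted. Over the 21 libraries the read counts of pairs within the H2A group differed by a median chi-square of 0.99 per degree of freedom, close to the 1 that counting alone gives, and the medians for H2B, H3 and H4 were 1.19, 0.97 and 1.10. This measure cannot separate shared reads from genes that change in parallel. Hist1h2ac and Hist2h2ac, of different groups and with 9.8% of coding windows shared, gave 1.01. The H3 and H4 genes also had few reads, 32 to 92 and 22 to 53 in control. Of its transcript windows, Hist1h2ao shared 93.5% with other genes; it had 0 to 9 reads per library, and Hist2h2aa2, at 100%, had 0 to 2. The H2A, H2B, H3 and H4 genes of a group are therefore uncertain one by one and are not independent of each other, and each group was also summed to 1 feature. Hist3h2a, Hist3h2ba and Hist1h1c stood apart: the chi-square per degree of freedom was 6.12 between Hist1h2ah and Hist3h2a, 10.17 between Hist1h2bc and Hist3h2ba and 4.60 between Hist1h1c and Hist3h2a.

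Histone genes took a small share of these libraries, and that share was lower in every CX-5461 library than in every control. The 61 genes together took 292.6 to 309.4 RPM in control, 276.4 to 317.3 after 2 h of BMH-21, 232.7 to 270.7 after 4 h and 293.7 to 324.7 after 8 h. With CX-5461 it was 204.2 to 228.6, 190.7 to 207.9 and 172.5 to 198.5. The BMH-21 libraries thus overlapped control at 2 h and 8 h and lay below it at 4 h. H2A genes held most of these reads, from 82.4% to 82.9% in control and from 71.7% to 79.0% at 8 h of CX-5461. These are bulk libraries, in which fewer cells in S phase and less histone RNA per cell cannot be told apart.

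**Figure D1:**
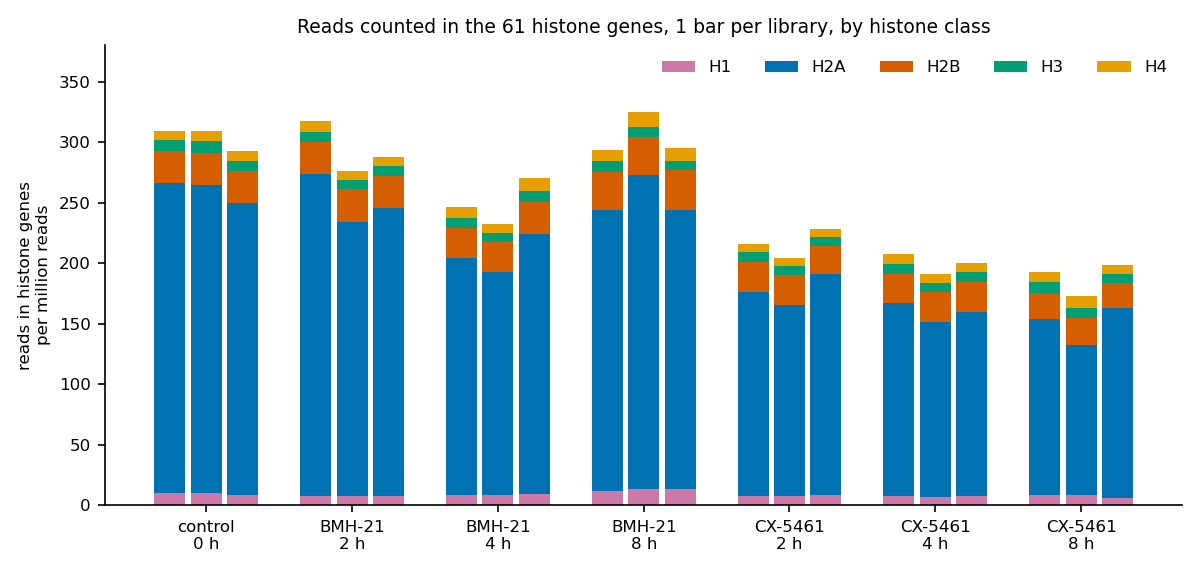
Reads counted in the 61 histone genes in RPM, 1 bar per library, with the classes H1, H2A, H2B, H3 and H4 stacked from the bottom. Control bars reach 292.6 to 309.4 and the 9 CX-5461 bars 172.5 to 228.6, and most of each bar is H2A.

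The first comparison asked which histone genes differed from untreated cells. With BMH-21 the linker histone gene Hist1h1c alone was called at 2 h, 12 of 14 H2A genes fell at 4 h, and at 8 h 3 genes rose (Hist3h2ba, Hist3h2a and Hist1h1c) and 10 fell. With CX-5461 H2A genes fell at every time, by a median of 1.01 on the log2 scale at 8 h, and no histone gene rose. At 2 h of BMH-21, 0 of the 36 genes rose and 1 fell at a limma adjusted p under 0.05, against 20.1% and 15.8% of all genes tested, and 2 of the 36 had an unadjusted p under 0.05. At 4 h the counts were 0 and 17, against 35.4% and 37.4% of all genes. After 8 h they were 3 and 10, against 40.7% and 41.8%, so a lower share of the 36 than of all genes was called in either direction. CX-5461 gave 0 and 16 at 2 h, against 19.1% and 12.6% of all genes, 0 and 17 at 4 h, against 34.1% and 35.3%, and 0 and 24 at 8 h, against 36.3% and 33.9%. The median log2 fold change of the 36 was -0.05, -0.26 and -0.20 under BMH-21, and -0.39, -0.31 and -0.61 with CX-5461, beside medians over all genes between -0.01 and 0.02. Both inhibitors share the control libraries in these comparisons. The 10 falls at 8 h of BMH-21 became 6 without control replicate 2 or BMH-21 8 h replicate 1, and 4 without BMH-21 8 h replicate 3. On the deposited scale they became 25, against 56.9% of all genes. Of the calls over all genes 30.1% were then higher in place of 49.4%, and at 8 h of CX-5461 71.1% in place of 51.7%. Quantile normalization called 36 of 36 lower at both 4 and 8 h of CX-5461, with medians of -0.874 and -1.105, and 30 lower at both 4 and 8 h of BMH-21, with medians of -0.501 and -0.582. Lower shares of all genes were then 44.6% and 40.4% with CX-5461 and 42.9% and 50.7% with BMH-21. With each near-identical group summed, 16 features remained, of which 0, 0 and 3 rose and 1, 7 and 3 fell with BMH-21, and 0 rose and 8, 9 and 11 fell with CX-5461.

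**Figure D2:**
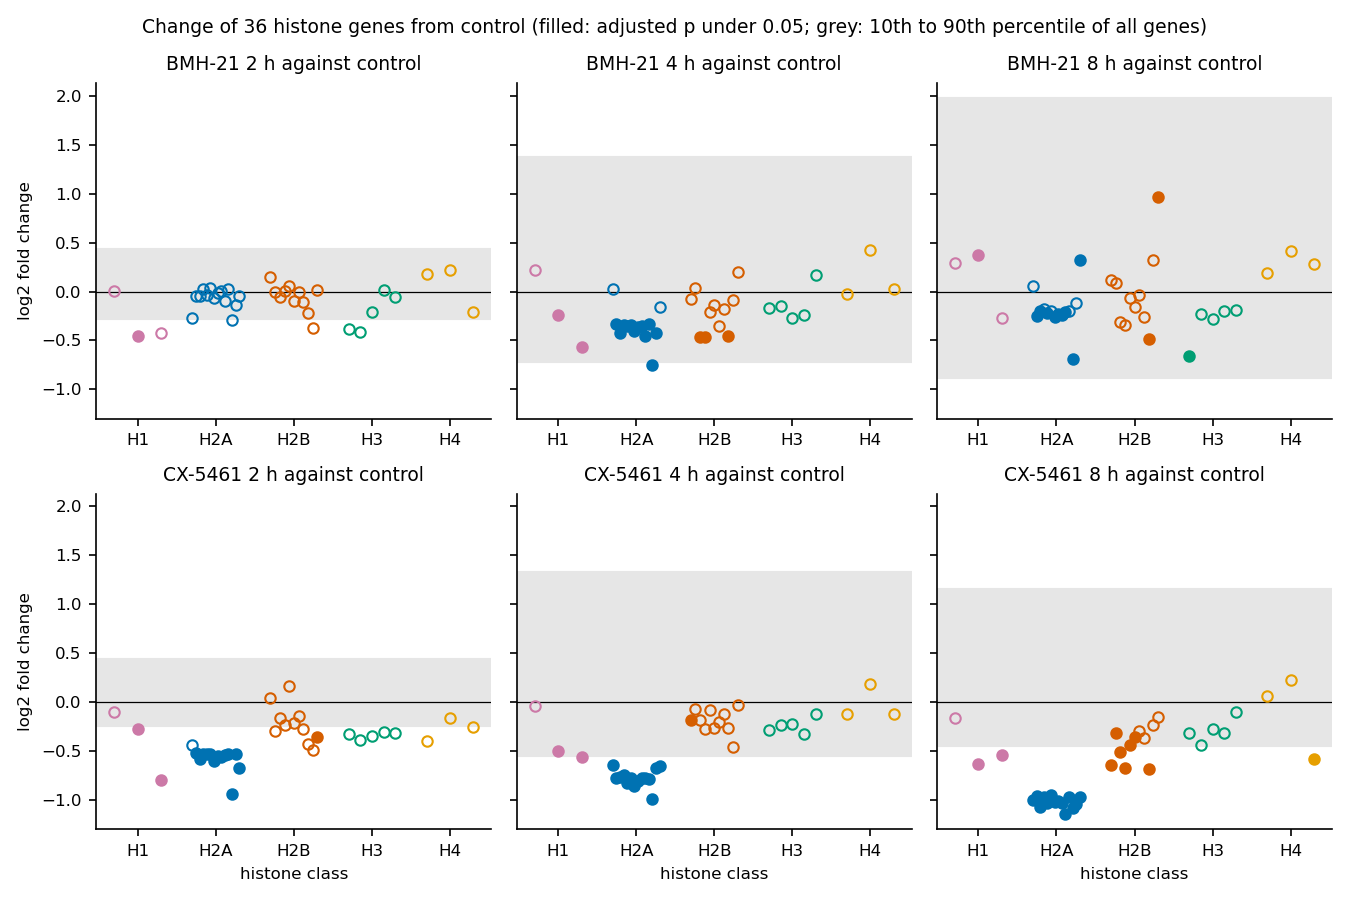
Log2 fold change from control of each of the 36 tested histone genes, by class (x axis), in 1 panel per inhibitor and time. Filled points had a limma adjusted p under 0.05, open points did not, and the grey band spans the 10th to the 90th percentile of all 14666 genes tested. The 14 H2A points are filled and lie between -1.14 and -0.95 at 8 h of CX-5461. The points of Hist2h2ab, Hist1h2aa, Hist1h1d and Hist1h3a are a description, since control libraries in which they are high helped them meet the filter.

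The largest rise was that of Hist3h2ba, an H2B gene of the small cluster on chromosome 11 (chr11:58948920-58949533, plus strand, 1 exon of 614 bases). Its level was 1.18, 1.38 and 1.27 in control, 1.19, 1.43 and 1.27 after 2 h, 1.3, 1.45 and 1.67 after 4 h and 2.22, 2.29 and 2.21 after 8 h of BMH-21, and 1.15, 0.99 and 0.62 after 2 h, 1.36, 1.06 and 1.32 after 4 h and 1.07, 1.32 and 0.98 at 8 h of CX-5461. The 3 BMH-21 8 h libraries were the highest of the 21 and close to each other, at 251 to 326 reads, and the CX-5461 2 h libraries lay below every control. The log2 fold change at 8 h was 0.96 ± 0.13 (SE, limma adjusted p 5.8e-07), with 3 of 3 libraries above every control. At 2 and 4 h of BMH-21 it was 0.02 and 0.20, which did not pass the test. With CX-5461 it fell at 2 h by 0.36 (limma adjusted p 0.0438) and stood at -0.03 and -0.15 at 4 and 8 h, not called. The 8 h rise with BMH-21 was 0.58 on the deposited scale, 0.79 with each library centred on its median and 0.36 under quantile normalization, each still called.

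Its neighbour Hist3h2a, an H2A gene on the same strand (chr11:58954685-58956830, plus strand), rose less with BMH-21 and fell with CX-5461. Its level was 2.49, 2.31 and 2.36 in control, 2.33, 2.31 and 2.39 after 2 h, 2.32, 2.05 and 2.32 after 4 h and 2.65, 2.8 and 2.67 after 8 h of BMH-21, and 1.83, 1.63 and 1.67 after 2 h, 1.74, 1.73 and 1.72 after 4 h and 1.5, 1.24 and 1.52 at 8 h of CX-5461. All 9 CX-5461 libraries lay below all 3 controls, and the BMH-21 8 h libraries lay above them. The log2 fold change was 0.32 ± 0.09 (SE, limma adjusted p 0.00323) after 8 h of BMH-21, and -0.68, -0.66 and -0.97 ± 0.09 (SE, limma adjusted p 3.3e-09) after 2, 4 and 8 h of CX-5461. The rise with BMH-21 depended on the scaling, since it was -0.07 on the deposited scale, 0.14 after centring and -0.17 under quantile normalization, with limma adjusted p of 0.677, 0.153 and 0.0949. Hist3h2a is annotated as overlapping Trim17 on the same strand. Trim17 had 36 to 69 reads per library over the groups, with mean levels of 0.03 in control, -0.23 at 8 h of BMH-21 and -0.39 at 8 h of CX-5461, and its part in the values of Hist3h2a was not tested.

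Among the linker histones, which bind DNA where it enters and leaves the nucleosome, 3 of 6 genes were tested. Hist1h1c (chr13:23738808-23740367, plus strand) fell first and then rose with BMH-21, and stayed lower with CX-5461. Its level was 2.66, 2.68 and 2.52 in control, 2.17, 2.24 and 2.08 after 2 h, 2.39, 2.35 and 2.41 after 4 h and 2.97, 3.06 and 2.94 after 8 h of BMH-21, and 2.26, 2.36 and 2.42 after 2 h, 2.11, 2.06 and 2.19 after 4 h and 2.1, 2.13 and 1.71 at 8 h of CX-5461. Every treated group was clear of control, the BMH-21 8 h libraries above it and the other 5 groups below it. The log2 fold change was -0.45 ± 0.09 (SE, limma adjusted p 4.7e-04), -0.23 and 0.37 ± 0.09 (SE, limma adjusted p 8.4e-04) after 2, 4 and 8 h of BMH-21. With CX-5461 it was -0.27, -0.50 and -0.64 ± 0.09 (SE, limma adjusted p 2.2e-06). The fall at 2 h was the single histone call of that comparison and stood under all 3 other scalings, whereas the 8 h rise was -0.01 on the deposited scale, 0.20 after centring and -0.07 under quantile normalization (limma adjusted p 0.924, 0.0547 and 0.511). Hist1h1d (chr13:23553262-23560686, plus strand) was near the level that the filter asks for, above 0 in 2 control, 1 BMH-21 2 h and 1 CX-5461 8 h libraries. Its level was 0.20, 0.17 and -0.13 in control, 0.05, -0.46 and -0.63 after 2 h, -0.56, -0.69 and -0.21 after 4 h and -0.64, -0.05 and 0.11 after 8 h of BMH-21, and -0.83, -0.77 and -0.56 after 2 h, -0.53, -0.58 and -0.33 after 4 h and -0.25, -0.37 and -0.77 at 8 h of CX-5461. Control libraries in which Hist1h1d is high helped it meet the filter, which favours a fall from control. Its changes, and its part in the counts of falls, are therefore a description with no p. They were -0.56 after 4 h of BMH-21 and -0.80, -0.56 and -0.54 after 2, 4 and 8 h of CX-5461, on 25 to 64 reads per library. The 8 h change with CX-5461 was not called on the deposited scale. Nor was it called without control replicate 1, control replicate 2 or CX-5461 8 h replicate 3 (-0.48, -0.50 and -0.39). Hist1h1a, the other linker histone tested, was not called in any comparison with control.

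**Figure D3:**
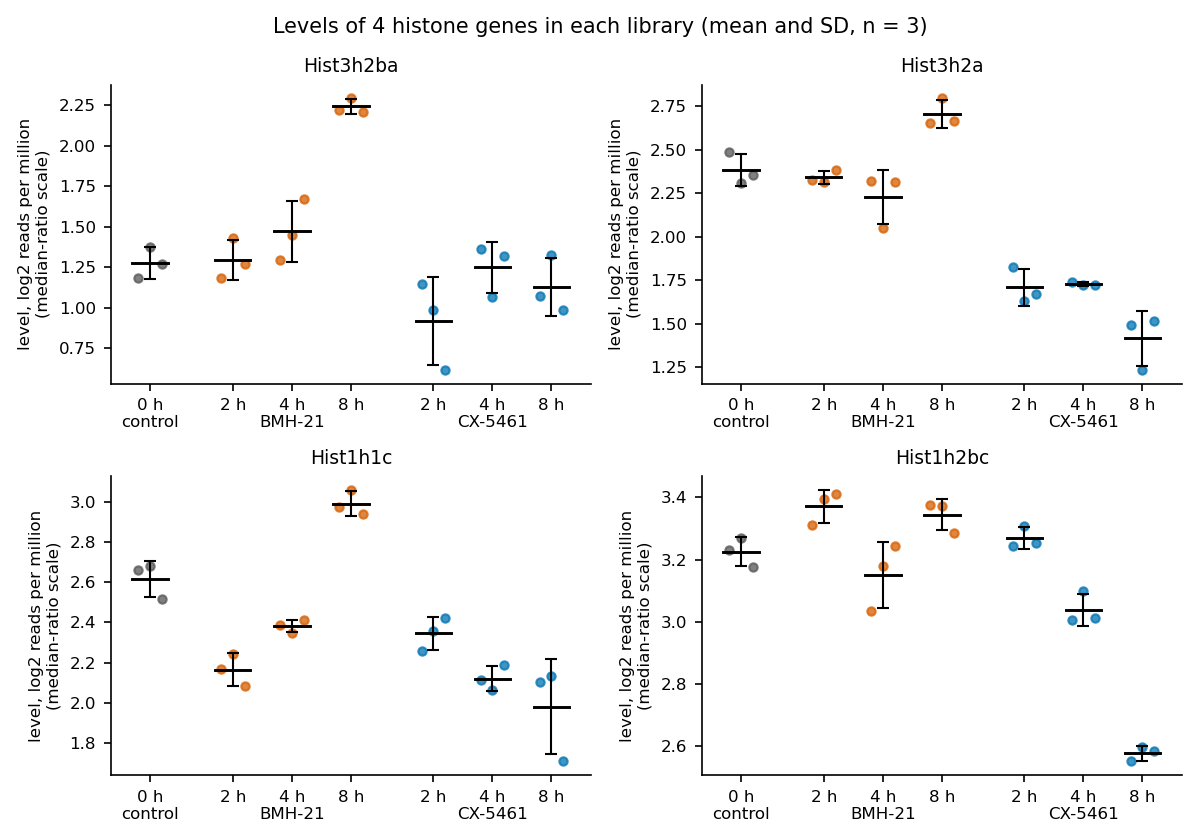
Levels (log2 RPM, median-ratio scale) of Hist3h2ba, Hist3h2a, Hist1h1c and Hist1h2bc in every library, by inhibitor and time, with the mean and SD of 3 libraries; the y axes do not start at 0 and differ between panels. Hist3h2ba lies at 2.21 to 2.29 at 8 h of BMH-21 and at or below 1.67 in all other groups.

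H2A genes made the most uniform class. With CX-5461, 13 of 14 fell at 2 h, 14 of 14 at 4 h and 14 of 14 at 8 h, and these counts were the same on the deposited scale, after centring and under quantile normalization. The shares of all genes lower there were 12.6%, 35.3% and 33.9%, and at most 51.2% on the other scalings. Hist2h2ab and Hist1h2aa are among the 14. They met the filter only through control and BMH-21 libraries, so their part in these counts is a description. The median log2 fold change of the 14 was -0.54, -0.77 and -1.01. With BMH-21 it was -0.04, -0.35 and -0.21, with 0, 12 and 8 genes lower and, at 8 h, Hist3h2a higher. Of all genes, 15.8%, 37.4% and 41.8% were lower there. The BMH-21 values at 8 h moved with the scaling, to 12 lower and a median of -0.595 on the deposited scale, 12 and -0.383 after centring and 13 and -0.387 under quantile normalization, with 0 higher in each. Over all genes 56.9%, 51.3% and 50.7% were lower on these scalings. The 10 near-identical H2A genes, summed, had levels of 7.89, 7.9 and 7.81 in control, 8.0, 7.74 and 7.82 after 2 h, 7.49, 7.41 and 7.63 after 4 h and 7.58, 7.78 and 7.59 after 8 h of BMH-21, and 7.31, 7.21 and 7.44 after 2 h, 7.16, 6.99 and 7.08 after 4 h and 6.91, 6.68 and 7.01 at 8 h of CX-5461. In the CX-5461 groups the summed level lay below every control at each time, while 1 BMH-21 2 h library lay above all controls and 2 did not. The sum changed by -0.55 ± 0.08 (SE, limma adjusted p 7.9e-06), -0.79 ± 0.08 (SE, limma adjusted p 5.7e-09) and -1.0 ± 0.08 (SE, limma adjusted p 1.2e-10) after 2, 4 and 8 h of CX-5461. With BMH-21 it was -0.01 ± 0.08 (SE, limma adjusted p 0.94) at 2 h, and it fell by 0.36 (limma adjusted p 3.4e-04) at 4 h and by 0.22 (limma adjusted p 0.0148) at 8 h.

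The 6 genes with the highest level per transcript length in control, Hist1h2ai, Hist1h2ah, Hist1h2an, Hist1h2af, Hist1h2ag and Hist1h2ad, all belong to this near-identical H2A group on chromosome 13, and each overlaps a short annotated gene. Per kilobase of exon their control levels were 5.70 to 6.25 (log2). The level of Hist1h2ai was 4.91, 4.94 and 4.87 in control, 5.08, 4.76 and 4.89 after 2 h, 4.52, 4.42 and 4.73 after 4 h and 4.6, 4.84 and 4.55 after 8 h of BMH-21, and 4.33, 4.25 and 4.46 after 2 h, 4.17, 4.07 and 4.16 after 4 h and 3.85, 3.69 and 4.07 at 8 h of CX-5461. That of Hist1h2ah was 4.96, 4.94 and 4.88 in control, 5.02, 4.8 and 4.93 after 2 h, 4.58, 4.49 and 4.61 after 4 h and 4.63, 4.87 and 4.59 after 8 h of BMH-21, and 4.33, 4.27 and 4.54 after 2 h, 4.23, 4.02 and 4.11 after 4 h and 3.97, 3.7 and 4.08 at 8 h of CX-5461. These 2 genes followed each other library by library, the BMH-21 8 h libraries below control and the CX-5461 8 h libraries further below it. Hist1h2an had levels of 4.61, 4.68 and 4.52 in control, 4.76, 4.48 and 4.65 after 2 h, 4.28, 4.12 and 4.41 after 4 h and 4.31, 4.52 and 4.39 after 8 h of BMH-21, and 4.07, 3.96 and 4.21 after 2 h, 3.94, 3.7 and 3.81 after 4 h and 3.7, 3.38 and 3.84 at 8 h of CX-5461. For Hist1h2af they were 4.58, 4.65 and 4.47 in control, 4.81, 4.43 and 4.58 after 2 h, 4.24, 4.03 and 4.39 after 4 h and 4.31, 4.49 and 4.3 after 8 h of BMH-21, and 4.03, 3.86 and 4.23 after 2 h, 3.87, 3.72 and 3.8 after 4 h and 3.64, 3.39 and 3.82 at 8 h of CX-5461. In both, control and BMH-21 2 h libraries overlapped and the CX-5461 libraries were lower than every control. The level of Hist1h2ag was 4.79, 4.7 and 4.65 in control, 4.77, 4.61 and 4.57 after 2 h, 4.3, 4.25 and 4.39 after 4 h and 4.34, 4.59 and 4.44 after 8 h of BMH-21, and 4.1, 4.07 and 4.18 after 2 h, 3.94, 3.83 and 3.8 after 4 h and 3.75, 3.59 and 3.75 at 8 h of CX-5461. In Hist1h2ad it was 4.91, 4.92 and 4.86 in control, 5.09, 4.82 and 4.84 after 2 h, 4.49, 4.49 and 4.69 after 4 h and 4.61, 4.85 and 4.69 after 8 h of BMH-21, and 4.31, 4.3 and 4.47 after 2 h, 4.22, 4.04 and 4.18 after 4 h and 3.92, 3.74 and 4.11 at 8 h of CX-5461. The 8 h log2 fold changes of these 6 genes lay between -1.03 and -0.95 with CX-5461, all called, and between -0.26 and -0.18 with BMH-21, of which those of Hist1h2ag, Hist1h2ai and Hist1h2ah were called.

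Hist1h2ae, with a transcript that runs past its stem-loop, was among the largest falls at 4 h of CX-5461. Its level was 4.59, 4.6 and 4.54 in control, 4.7, 4.4 and 4.52 after 2 h, 4.1, 4.18 and 4.38 after 4 h and 4.32, 4.45 and 4.3 after 8 h of BMH-21, and 4.09, 3.84 and 4.22 after 2 h, 3.87, 3.64 and 3.73 after 4 h and 3.58, 3.321 and 3.71 at 8 h of CX-5461. Hist1h2ak had the largest fall at 8 h of CX-5461, -1.14 ± 0.09 (SE, limma adjusted p 2.0e-10). Its level was 3.71, 3.67 and 3.57 in control, 3.74, 3.51 and 3.43 after 2 h, 3.16, 3.06 and 3.36 after 4 h and 3.41, 3.67 and 3.24 after 8 h of BMH-21, and 3.17, 3.02 and 3.15 after 2 h, 2.87, 2.91 and 2.83 after 4 h and 2.51, 2.47 and 2.55 at 8 h of CX-5461. The BMH-21 8 h libraries of both genes lay between control and the CX-5461 8 h libraries, apart from 1 Hist1h2ak library that reached the control range. Hist1h2ac, the H2A gene with the longest annotated extension past its stem-loop, fell by 1.07 ± 0.08 (SE, limma adjusted p 2.8e-11) at 8 h of CX-5461. Its level was 4.41, 4.38 and 4.33 in control, 4.45, 4.26 and 4.27 after 2 h, 3.89, 3.85 and 4.11 after 4 h and 4.18, 4.26 and 4.08 after 8 h of BMH-21, and 3.85, 3.68 and 3.84 after 2 h, 3.65, 3.53 and 3.65 after 4 h and 3.48, 3.19 and 3.24 at 8 h of CX-5461. It was lower in all 9 CX-5461 libraries than in any control. At 8 h of BMH-21, Hist1h2ak, Hist1h2ac, Hist1h2ae, Hist1h2ai and Hist1h2ah changed by -0.21, -0.20, -0.22, -0.24 and -0.23. Without BMH-21 8 h replicate 3 these values were -0.11, -0.16, -0.19, -0.19 and -0.18 and none was called. Without BMH-21 8 h replicate 1 the calls of Hist1h2ak, Hist1h2ae, Hist1h2ai and Hist1h2ah were lost too (-0.20, -0.20, -0.21 and -0.20), without control replicate 1 those of Hist1h2ak, Hist1h2ac, Hist1h2ae and Hist1h2ah (-0.18, -0.18, -0.21 and -0.21), without control replicate 2 those of Hist1h2ak, Hist1h2ac, Hist1h2ae and Hist1h2ai (-0.20, -0.20, -0.20 and -0.23), and without control replicate 3 that of Hist1h2ae (-0.23).

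Hist2h2ab, on chromosome 3 (chr3:96219865-96220308, plus strand), was low, and its deposited values were above 0 in 3 control, 2 BMH-21 2 h and 1 BMH-21 4 h libraries and in no other. It was thus tested only through groups in which it is high, and its values are given as a description with no p. Its level was 0.62, 0.57 and 0.38 in control, -0.01, 0.42 and 0.29 after 2 h, -0.09, -0.49 and -0.12 after 4 h and -0.31, -0.12 and -0.07 after 8 h of BMH-21, and -0.28, -0.44 and -0.52 after 2 h, -0.57, -0.09 and -0.75 after 4 h and -0.49, -0.28 and -0.92 at 8 h of CX-5461. In all groups but BMH-21 2 h every library lay below every control, on 27 to 61 reads against 63 to 83. The log2 fold change was -0.29, -0.75 and -0.69 under BMH-21 at 2, 4 and 8 h. With CX-5461 it was -0.94, -0.99 and -1.08. It overlaps the antisense gene Gm15444, and the counting is not stated to use strand. Hist1h2aa, the testis-type H2A gene (chr13:23934462-23934851, plus strand), shares 2.3% of its windows with other genes. Its level was 0.08, -0.19 and -0.10 in control, -0.29, -0.74 and 0.01 after 2 h, -0.32, -0.21 and 0.39 after 4 h and -0.18, 0.12 and 0.01 after 8 h of BMH-21, and -0.40, -0.56 and -0.56 after 2 h, -0.77, -0.72 and -0.65 after 4 h and -1.26, -1.24 and -0.72 at 8 h of CX-5461. It too was tested only through groups in which it is high, 2 control, 1 BMH-21 2 h and 1 BMH-21 4 h libraries above 0 and none of CX-5461. As a description, its log2 fold changes were -0.64 and -1.0 at 4 and 8 h of CX-5461, on 25 to 33 reads, and 0.05 at 8 h of BMH-21.

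H2B, the partner of H2A in the nucleosome, gave fewer calls on this scale. Of 11 H2B genes tested, 1, 1 and 7 fell with 2, 4 and 8 h of CX-5461, while 0, 3 and 1 fell and 0, 0 and 1 rose with BMH-21. Beside these, 12.6%, 35.3% and 33.9% of all genes fell with CX-5461 and 15.8%, 37.4% and 41.8% with BMH-21. At 8 h of BMH-21, 40.7% of all genes rose. Deposited values gave 3, 5 and 3 lower under CX-5461, while under BMH-21 they gave 0, 5 and 7. Centring gave 3, 3 and 9 and 0, 3 and 5, and quantile normalization 3, 11 and 11 and 0, 10 and 9. The lower shares of all genes, for CX-5461 and then BMH-21, were 20.5%, 51.2% and 14.3% and 11.2%, 44.9% and 56.9% as deposited. After centring they were 17.8%, 45.7% and 44.7% and 17.5%, 41.5% and 51.3%. Under quantile normalization they were 14.6%, 44.6% and 40.4% and 16.7%, 42.9% and 50.7%. The sum of 11 near-identical H2B genes had levels of 4.43, 4.44 and 4.42 in control, 4.44, 4.5 and 4.49 after 2 h, 4.24, 4.29 and 4.3 after 4 h and 4.39, 4.39 and 4.44 after 8 h of BMH-21, and 4.36, 4.37 and 4.34 after 2 h, 4.23, 4.33 and 4.27 after 4 h and 3.97, 3.91 and 3.85 at 8 h of CX-5461. Its 3 control libraries lay within 0.02 of each other, and the CX-5461 8 h libraries were clear below all other groups. The sum fell at 4 h of both inhibitors, by 0.15 ± 0.04 (SE, limma adjusted p 0.00345) with BMH-21 and 0.16 ± 0.04 (SE, limma adjusted p 0.00326) with CX-5461. It changed by -0.52 ± 0.04 (SE, limma adjusted p 3.5e-10) at 8 h of CX-5461, and was -0.02 ± 0.04 (SE, limma adjusted p 0.635) at 8 h of BMH-21. Hist1h2bc (chr13:23684199-23692908, plus strand), singled out after its values were seen, had the most reads of the H2B genes and is 1 of the 3 genes with an annotated intron. Its level was 3.23, 3.27 and 3.18 in control, 3.31, 3.39 and 3.41 after 2 h, 3.04, 3.18 and 3.24 after 4 h and 3.38, 3.37 and 3.29 after 8 h of BMH-21, and 3.24, 3.31 and 3.25 after 2 h, 3.01, 3.1 and 3.01 after 4 h and 2.55, 2.6 and 2.59 at 8 h of CX-5461. The CX-5461 4 and 8 h groups lay below every control in all 3 libraries, and the other groups did not. It fell with CX-5461 at 4 h (-0.19 ± 0.06 SE, limma adjusted p 0.00968) and 8 h (-0.65 ± 0.06 SE, limma adjusted p 2.3e-09), and stood at 0.12 at 8 h of BMH-21 (limma adjusted p 0.0768). Hist1h2bh and Hist1h2bp were near 0. The level of Hist1h2bh was 0.41, 0.22 and 0.45 in control, 0.22, 0.15 and 0.72 after 2 h, -0.03, -0.34 and 0.06 after 4 h and -0.07, -0.07 and 0.20 after 8 h of BMH-21, and 0.06, 0.37 and -0.07 after 2 h, 0.15, 0.06 and 0.06 after 4 h and -0.19, -0.53 and -0.22 at 8 h of CX-5461. For Hist1h2bp it was 0.39, 0.39 and 0.59 in control, 0.22, 0.42 and 0.07 after 2 h, -0.01, 0.18 and -0.14 after 4 h and -0.12, -0.29 and 0.33 after 8 h of BMH-21, and 0.12, -0.03 and 0.01 after 2 h, 0.18, 0.43 and -0.03 after 4 h and -0.17, -0.22 and -0.29 at 8 h of CX-5461. Both fell at 4 h of BMH-21 (-0.47 and -0.45) and at 8 h of CX-5461 (-0.68 and -0.69), and Hist1h2bp also at 8 h of BMH-21 (-0.49), a call lost without control replicate 3 (-0.42) and without BMH-21 8 h replicate 2 (-0.36).

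**Figure D4:**
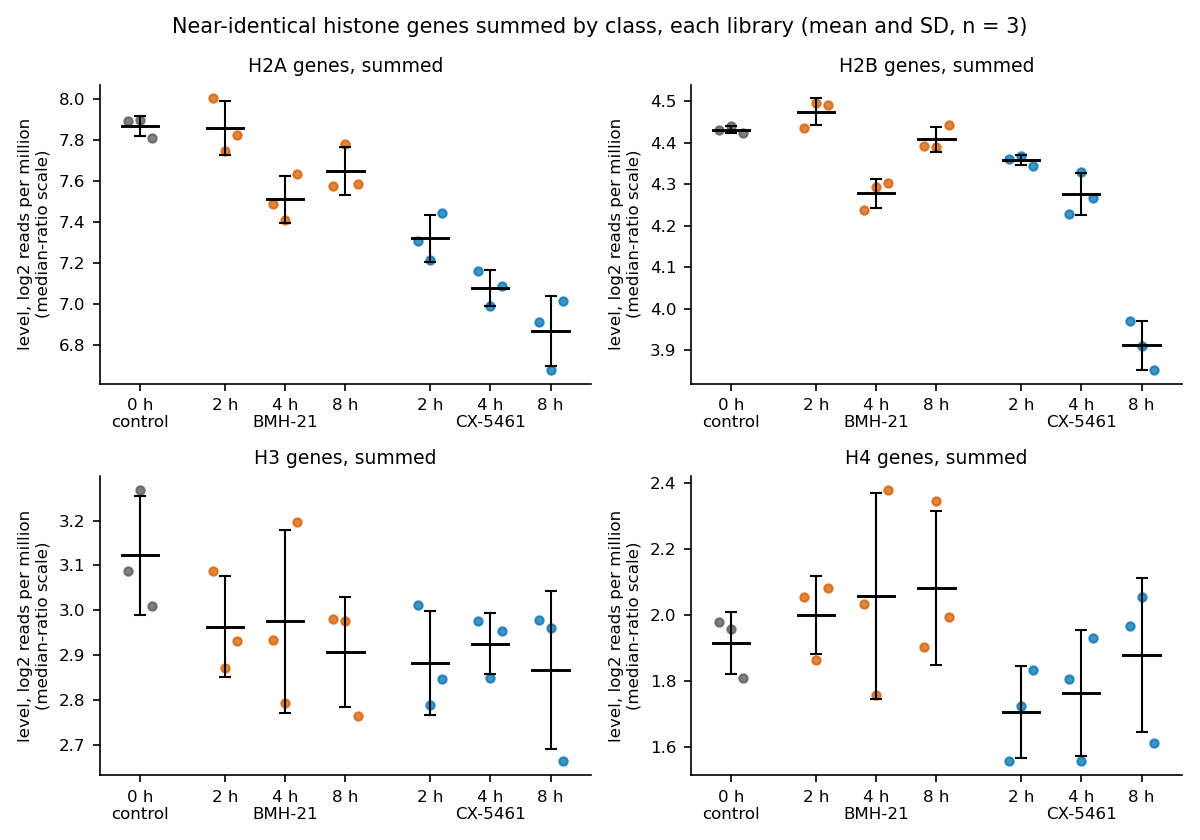
Levels (log2 RPM, median-ratio scale) of the near-identical H2A, H2B, H3 and H4 genes, summed within each class, in every library, with the mean and SD of 3 libraries; the y axes do not start at 0 and differ between panels. H2A lies at 7.81 to 7.90 in control and at 6.68 to 7.01 at 8 h of CX-5461, while the H4 groups overlap control.

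H3 and H4, which form the core tetramer of the nucleosome, gave few calls on this scale. Of 5 H3 genes tested, Hist1h3a alone was called against control, and this count moved with the scaling. Deposited values called 0, 1 and 5 of the 5 lower under BMH-21 at 2, 4 and 8 h, while under CX-5461 these were 1, 2 and 0. Centring gave 2 lower at 8 h of each inhibitor and 0 at 2 and 4 h, and quantile normalization 0, 4 and 5 under BMH-21, but 1, 5 and 5 under CX-5461. Its level was 0.08, 0.12 and -0.23 in control, -0.74, 0.00 and -0.45 after 2 h, -0.03, -0.21 and -0.31 after 4 h and -0.38, -0.65 and -0.98 after 8 h of BMH-21, and -0.13, -0.64 and -0.25 after 2 h, -0.12, -0.45 and -0.33 after 4 h and 0.03, -0.37 and -0.63 at 8 h of CX-5461. It was lower at 8 h of BMH-21 (-0.66 ± 0.23 SE), on 28 to 57 reads, a call lost without BMH-21 8 h replicate 3 (-0.50). Its deposited values were above 0 in 2 control, 1 BMH-21 2 h, 1 BMH-21 4 h and 1 CX-5461 8 h libraries, and in 0 at 8 h of BMH-21. Control libraries in which it is high helped it meet the filter, so this change is a description with no p. The sum of 9 H3 genes had levels of 3.09, 3.27 and 3.01 in control, 3.09, 2.87 and 2.93 after 2 h, 2.93, 2.79 and 3.2 after 4 h and 2.98, 2.98 and 2.77 after 8 h of BMH-21, and 3.01, 2.79 and 2.85 after 2 h, 2.98, 2.85 and 2.95 after 4 h and 2.98, 2.96 and 2.66 at 8 h of CX-5461. It changed by -0.26 ± 0.10 (SE, limma adjusted p 0.0319) at 8 h of CX-5461 and was -0.21 ± 0.10 (SE, limma adjusted p 0.0591) at 8 h of BMH-21. Of 3 H4 genes, Hist1h4i fell at 8 h of CX-5461 (-0.58 ± 0.16 SE, limma adjusted p 0.00272) with levels of 0.89, 0.95 and 1.0 in control and 0.30, 0.27 and 0.52 in that group. No other H4 gene was called against control, and the 6 near-identical H4 genes, summed, stood at 0.17 ± 0.15 (SE, limma adjusted p 0.299) and -0.04 ± 0.15 (SE, limma adjusted p 0.83) at 8 h of BMH-21 and CX-5461. For H3 and H4 alike, the lower shares of all genes on each scaling are those given with the H2B genes. Of the 3 H4 genes, quantile normalization called 3 lower at 4 and 8 h of CX-5461 and 1 and 2 at 4 and 8 h of BMH-21. The cause was not tested.

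The inhibitors were then compared with each other at the same dose and time. Histone genes were higher with BMH-21 than with CX-5461 wherever a difference was called. At 2 h, 13 of 36 were higher and 0 lower, against 5.78% and 9.2% of all genes. At 4 h the counts were 13 and 0, against 18.0% and 23.9%, and at 8 h 19 and 0, against 35.8% and 35.1%. All 13 at 2 h were H2A genes, and the 19 at 8 h were 13 H2A, 4 H2B, 1 H1 and 1 H4 gene. Hist2h2ab at 2 h and Hist1h2aa at 4 and 8 h are counted here as a description. They met the filter through no CX-5461 library. The largest 8 h differences were those of Hist3h2a (1.29 ± 0.09 SE, limma adjusted p 2.2e-11), Hist3h2ba (1.11 ± 0.13 SE, limma adjusted p 1.1e-07) and, as a description for the reason above, Hist1h2aa (1.05). Hist1h1c followed with 1.01 ± 0.09 (SE, limma adjusted p 1.5e-09), and Hist1h2bc differed by 0.77 ± 0.06 (SE, limma adjusted p 1.2e-10). In each of these 5 genes the 3 BMH-21 and 3 CX-5461 libraries did not overlap. They were picked by the size of this difference or after values were seen, so the lack of overlap is a description only. The summed H2A genes differed by 0.54 ± 0.08 (SE, limma adjusted p 4.6e-05), 0.43 ± 0.08 (SE, limma adjusted p 1.4e-04) and 0.78 ± 0.08 (SE, limma adjusted p 8.1e-09) at 2, 4 and 8 h. Summed H2B genes differed by 0.50 ± 0.04 (SE, limma adjusted p 7.7e-10) at 8 h, and at 2 and 4 h were 0.12 ± 0.04 (SE, limma adjusted p 0.0809) and 0.00 ± 0.04 (SE, limma adjusted p 0.973). For H3 the 8 h difference was 0.04 ± 0.10 (SE, limma adjusted p 0.738), and for H4 0.20 ± 0.15 (SE, limma adjusted p 0.221). On the deposited scale, where all genes had a median difference of -0.48 at 8 h, 15 histone genes were still higher with BMH-21 and 3 H3 genes were lower. Of all genes, 12.0% were higher and 67.2% lower there.

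**Figure D5:**
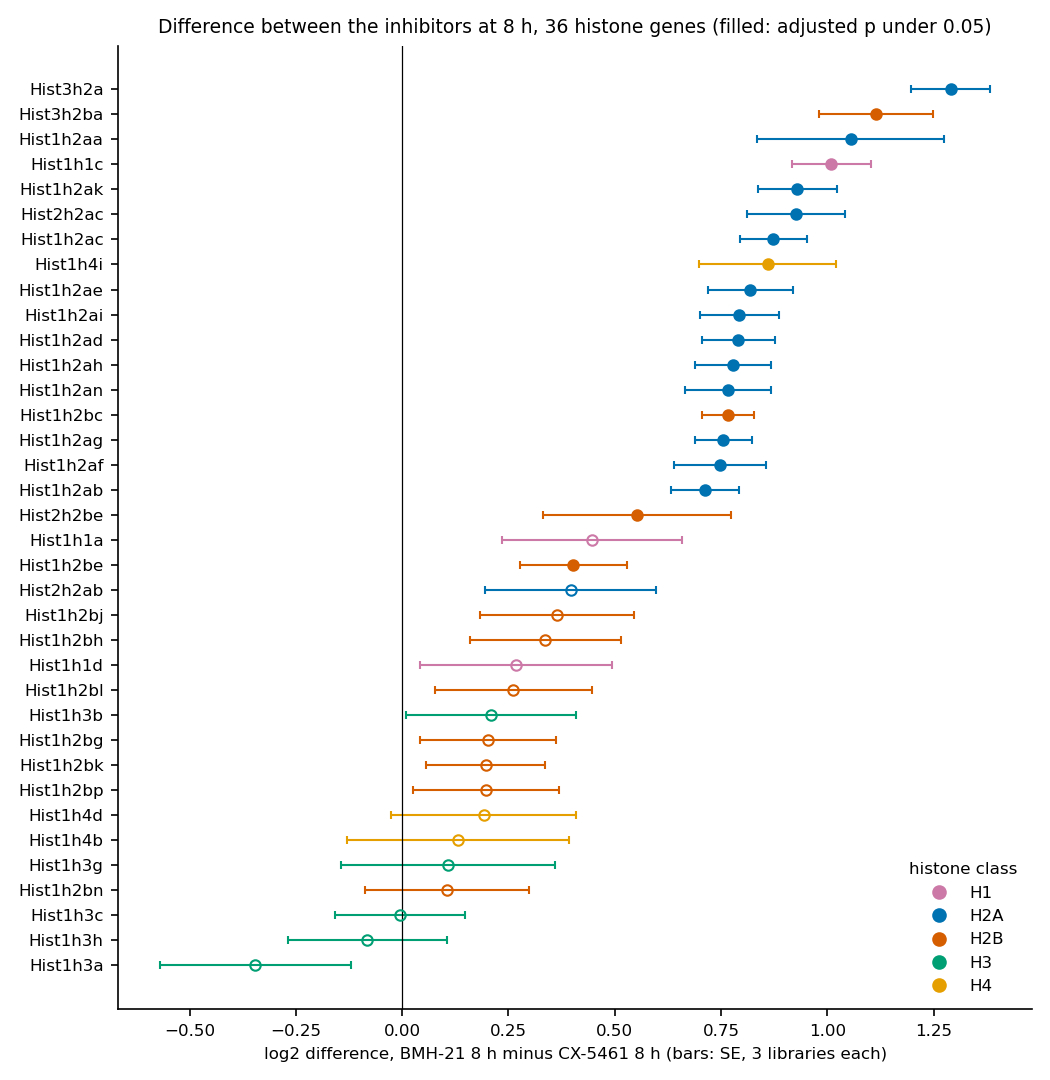
Log2 difference between BMH-21 8 h and CX-5461 8 h (x axis) for each of the 36 tested histone genes, with its SE, coloured by class; filled points had a limma adjusted p under 0.05. The 19 filled points all lie to the right of 0, from 0.40 to 1.29, and the 5 H3 points are open. The filled point of Hist1h2aa is a description only, since no CX-5461 library helped it meet the filter.

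The 8 h libraries were also set against the 4 h libraries of the same inhibitor. With BMH-21, 7 genes were higher at 8 h than at 4 h and 0 lower, against 38.0% and 31.2% of all genes. These were Hist3h2ba (0.77 ± 0.13 SE, limma adjusted p 2.4e-05), Hist1h1c (0.61), Hist3h2a (0.48), Hist2h2ac (0.31), Hist1h2ak (0.24), Hist1h2ac (0.23) and Hist1h2bc (0.19). With CX-5461, 0 were higher and 10 lower, against 26.7% and 30.7%, among them Hist1h2bc (-0.46 ± 0.06 SE, limma adjusted p 1.0e-06), Hist1h4i (-0.46) and Hist3h2a (-0.31). The difference between these 2 changes, a contrast added after the data were seen, was positive for 14 genes and negative for 0 at a limma adjusted p under 0.05, against 31.2% and 26.5% of all genes. These time comparisons depended on the scaling. On the deposited scale, where the medians over all genes were -0.14, 0.34 and -0.52, BMH-21 gave 2 higher and 1 lower, CX-5461 1 higher and 0 lower, and the contrast 0 and 2. Centring left Hist1h1c, Hist3h2a and Hist3h2ba higher with BMH-21. Without BMH-21 4 h replicate 1 or 2 the 7 became 3 and 4, and the 10 became 5, 6 and 4 without CX-5461 4 h replicate 1, CX-5461 8 h replicate 1 or CX-5461 8 h replicate 2.

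The genes were also described by where their annotated transcripts end. Of the 36, 10 had a transcript that ran more than 100 bases past the stem-loop, 7 one that ended within 100 bases of it and 19 no stem-loop in the annotated transcript. Some of the 19 are annotated for little more than their coding sequence, as Hist1h2ai (390 of 393 bases) and Hist1h2bl (378 of 381). A hairpin past it could not be found there, so these genes may still have one. At 8 h of BMH-21 the medians of these 3 sets were -0.06, -0.25 and -0.19, with 3, 0 and 0 genes higher and 2, 4 and 4 lower. Of all genes, 40.7% were higher and 41.8% lower there. At 8 h of CX-5461 the medians were -0.59, -0.69 and -0.58, with 8, 5 and 11 lower, against 33.9% of all genes. Of the 10 genes with the longer extension, 9 had a poly(A) signal in it, of which 3 rose at 8 h of BMH-21 (Hist3h2a and Hist1h1c on this scale only) and 6 did not. Genes within a set share sequence, so these are descriptions with no test.

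The promoters of those 3 genes are shown because these genes alone were called higher than control, Hist3h2a and Hist1h1c on this scale only. They are RefSeq sequences (GRCm38.p6) from 250 bases before to 50 after the start. Capitals mark 3 motifs searched on both strands, the TATA box as TATAAA, the site of the factor NF-Y as CCAAT and the box of linker histone promoters as AAACACA.
Hist3h2ba, chr11:58948661-58948960, plus strand: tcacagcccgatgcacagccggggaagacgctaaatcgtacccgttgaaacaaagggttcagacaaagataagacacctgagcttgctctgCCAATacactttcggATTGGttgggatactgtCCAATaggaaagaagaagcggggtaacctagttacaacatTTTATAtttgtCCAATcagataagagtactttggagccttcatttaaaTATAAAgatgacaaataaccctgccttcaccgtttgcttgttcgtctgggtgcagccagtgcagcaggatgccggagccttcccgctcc
Hist3h2a, chr11:58954435-58954734, plus strand: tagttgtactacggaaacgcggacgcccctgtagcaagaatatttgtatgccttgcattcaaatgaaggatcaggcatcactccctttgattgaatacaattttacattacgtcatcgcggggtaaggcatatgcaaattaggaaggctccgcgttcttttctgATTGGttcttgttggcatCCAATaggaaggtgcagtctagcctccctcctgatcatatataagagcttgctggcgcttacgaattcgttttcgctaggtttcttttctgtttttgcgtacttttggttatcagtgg
Hist1h1c, chr13:23738557-23738856, plus strand: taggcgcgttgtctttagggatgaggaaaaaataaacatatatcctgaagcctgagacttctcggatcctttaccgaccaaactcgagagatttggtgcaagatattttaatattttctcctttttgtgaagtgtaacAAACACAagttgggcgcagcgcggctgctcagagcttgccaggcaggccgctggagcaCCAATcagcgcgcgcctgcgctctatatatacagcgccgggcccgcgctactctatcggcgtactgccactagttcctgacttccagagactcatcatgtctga
Promoters were matched for 55 of the 61 genes by symbol or identifier, 56 sequences in all. TATAAA was in 58.9% of them and in 13.5% of 32795 other promoters of the same length, CCAAT in 85.7% and 37.3%, and AAACACA in 16.1% and 7.17%. Hist3h2ba held TATAAA and CCAAT, Hist3h2a CCAAT without TATAAA, and Hist1h1c CCAAT and AAACACA without TATAAA. A match is only the presence of these letters.

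Genes outside the rule that act on histone supply were counted from 5 lists. Replacement histones are made outside S phase from ordinary polyadenylated mRNA, and of 11 tested 4 rose and 5 fell at 8 h of BMH-21 and 1 rose and 7 fell at 8 h of CX-5461. H3f3b, which encodes H3.3, had log2 fold changes of 0.91 and -0.05, and H1f0, the linker histone of non-dividing cells, by 0.86 and -0.25, where the CX-5461 values of H3f3b (limma adjusted p 0.298) and, on the deposited scale, of H1f0 (limma adjusted p 0.285) did not pass the test and H3f3b was 0.18 under quantile normalization, a call. H2afz and H2afy, for H2A.Z and macroH2A, fell by 0.90 and 0.65 under BMH-21, against 0.63 and 0.43 with CX-5461. Of 18 genes for histone pre-mRNA processing, 4 rose and 13 fell at 8 h of BMH-21 and 3 rose and 12 fell at 8 h of CX-5461. Slbp changed by -0.69 and -0.26, Npat by -0.38 and -0.15, Coil, which encodes coilin, by -1.2 and -0.61, Cstf2, a cleavage factor, by -0.65 and -0.36 and Zfp473, a U7 partner, by 0.62 and 0.24. On the deposited scale Slbp and Npat were not called at 8 h of CX-5461, and 4 of the 18 genes were lower there, against 14.3% of all genes.

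Of 20 genes for polyadenylation and the nuclear exosome, 3 rose and 17 fell at 8 h of BMH-21 and 0 rose and 16 fell at 8 h of CX-5461. Cpsf6 and Nudt21, subunits of cleavage factor I that steer the choice of poly(A) site, fell by 1.17 and 0.76 under BMH-21, against 0.49 and 0.50 with CX-5461. Dis3, an exosome nuclease, and Skiv2l2, its helicase partner, fell by 0.73 and 0.71 under BMH-21, against 0.59 and 0.57 with CX-5461. Of 19 genes of S phase and its control, 3 rose and 15 fell with BMH-21, and 2 rose and 14 fell with CX-5461. Cdkn1a, the inhibitor of cyclin-dependent kinases induced by p53, rose by 2.84 and 1.77, while Ccne1 (cyclin E), Pcna and Cdt1 changed by -1.11, -1.03 and -0.76 under BMH-21, against -0.16, -0.40 and -0.39 with CX-5461. The CX-5461 value of Ccne1 was 0.16 and that of Pcna -0.07 under quantile normalization, the latter not called, and Ccne1 was not called on the deposited scale (-0.06). For the S phase list quantile normalization gave 5 higher and 7 lower at 8 h of CX-5461, with a median of -0.022 in place of -0.225. Over all genes it called 27.6% higher and 40.4% lower there. Of 12 histone chaperones, 0 rose and 11 fell with BMH-21, and 1 rose and 10 fell with CX-5461. Atrx, Nasp, Asf1a and Nap1l1 fell by 1.08, 1.02, 0.98 and 0.82 under BMH-21, against 0.46, 0.49, 0.29 and 0.62 with CX-5461. Asf1a was not called on the deposited scale with CX-5461 (-0.19). On that scale 5, 9 and 4 genes of these 3 lists were lower at 8 h of CX-5461, against 14.3% of all genes, where the main counts were 16, 14 and 10. On the main scale the share of all genes called higher was 40.7% with BMH-21 and 36.3% with CX-5461, and that called lower 41.8% and 33.9%.

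RNAs that carry no poly(A) tail bear on how much untailed RNA each library held. Rpph1, the RNA of RNase P, had levels of 0.11 to 1.02 in control, -0.34 to 0.39 at 8 h of BMH-21 and 1.18 to 2.23 at 8 h of CX-5461. Rmrp, the RNA of RNase MRP, had -1.4 to 0.60, -1.62 to -0.83 and -1.74 to 1.72 in the same groups. The ribosomal precursor Rn45s had 11.3 to 12.36, 11.49 to 11.87 and 11.23 to 13.02. Among the groups shown, Rpph1 was highest at 8 h of CX-5461, while Rmrp and Rn45s overlapped control in both 8 h groups. Rn45s is made by RNA polymerase I, which both inhibitors target, so its level cannot by itself gauge untailed RNA. The part of untailed RNA in the histone values was not tested. Fibroblast markers, of which 4 of 7 were tested, had a summed level of 4.96 to 5.04 in control, 5.67 to 5.82 at 8 h of BMH-21 and 5.34 to 5.44 at 8 h of CX-5461, with 3 of the 4 called higher and 1 lower at 8 h of both inhibitors. Among these 4, mean levels in the same groups were 2.99, 5.24 and 4.12 for Col1a1, 0.10, 0.55 and 0.60 for Col1a2, 1.51, 2.19 and 2.41 for Pdgfrb and, in the other direction, 4.32, 3.30 and 4.09 for Thy1. The part of these markers, and of those of the other cell types that follow, in the histone values was not tested. Neural markers (4 of 4 tested) summed to 7.29 to 7.55, 6.86 to 6.97 and 7.53 to 7.56 in the same groups, germ cell markers (3 of 5) to 6.00 to 6.06, 5.81 to 5.89 and 5.47 to 5.52, endoderm markers (3 of 4) to 2.56 to 2.83, 3.03 to 3.07 and 2.79 to 2.88, and mesoderm markers (4 of 4) to 1.37 to 1.62, 2.60 to 2.73 and 1.84 to 2.06. The germ cell gene Tnp1 was at 0 reads in every control library.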

How the data were processed

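Poly(A) RNA-seq libraries of 21 samples in 7 groups of 3 were used. The values are deposited log2 expression values made by the authors, 1 column per library, and all columns matched a sample (0 did not). Per the submitters' processing notes, mm10, Trim Galore 0.5.0, TopHat2 2.1.1, R 4.0.5, DESeq2 1.30.1, edgeR 3.32.1 and limma 3.46.0 were used, while the read counter, the annotation and the treatment of multiply mapped reads are not given in the sources used here. Whole reads were recovered from the log2 values, 46604397 to 62812641 per library.

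Because the deposited values carried shifts common to most genes, each library was moved by the median difference of its tested genes from their means over the 21 libraries, and limma 3.58.1 (R 4.3.3) fitted 7 group means over all 21 libraries, with a variance trend and Benjamini-Hochberg adjustment over 14666 genes with a deposited value above 0 in at least 3 libraries. Tables and figures were made with Python 3.11.15 and matplotlib 3.10.9. Calls are at an adjusted p under 0.05. On simulated data with 200 changed genes of 14666, 96 of 100 changes of log2 size 1 and 100 of 100 of size 2 were found, with 6 false calls. The changes were placed in 1 group and were balanced up and down. In the data, 40.7% and 41.8% of all genes were called higher and lower at 8 h of BMH-21. The simulation cannot show how the library shift behaves with so many changes. Values in every library are given for the 6 genes highest per length in control, the 3 largest called rises and falls with no overlap in each comparison with control, and the 3 largest differences between inhibitors at 8 h; Hist1h2bc and the other genes named in the time comparison were chosen after values were seen. From each list the 4 largest called changes at 8 h of BMH-21 are named, with Slbp, Npat and Cdkn1a. The members and lists were chosen with earlier results of these data known. Alternatives were other scalings and filters, an offset of 5 reads, voom weights, a replicate block, near-identical genes summed and each library left out.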

Additional observations from a re-analysis of the deposited data

Results flagged for a closer look

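The change between 4 and 8 h differed between the inhibitors for 14 of the 36 histone genes tested, by a contrast of the BMH-21 change against the CX-5461 change that was added after the data were seen (limma adjusted p under 0.05). The contrast was positive in all 14, 38.9% of the 36, against 31.2% of all genes tested. It was negative in 0, against 26.5% of all genes. The log2 difference was 0.89 for Hist3h2ba, 0.79 for Hist3h2a and 0.75 for Hist1h1c, the linker histone gene. It was 0.71 for Hist1h4i, 0.68 for Hist2h2ac and 0.65 for Hist1h2bc. For the remaining H2A genes it was 0.61 (Hist1h2ak), 0.53 (Hist1h2ac), 0.38 (Hist1h2ad), 0.37 (Hist1h2ai), 0.34 (Hist1h2ae), 0.34 (Hist1h2ah), 0.30 (Hist1h2ag) and 0.27 (Hist1h2ab), and most of these share sequence and reads with each other. On the deposited scale, where the median of all genes was -0.52, none of the 36 was called higher in this contrast.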

How the results depend on the processing

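Without the library shift, on the deposited scale, 1 histone gene rose and 25 fell at 8 h of BMH-21, 15 were higher and 3 lower with BMH-21 than with CX-5461 at 8 h, 2 rose and 1 fell from 4 to 8 h of BMH-21, 1 rose and 0 fell from 4 to 8 h of CX-5461, and the contrast of those changes gave 0 and 2. The shares of all genes higher and lower were, in the same order, 24.5% and 56.9%, 12.0% and 67.2%, 18.6% and 37.8%, 58.8% and 4.85%, and 7.98% and 61.4%. Hist1h1c and Hist3h2a at 8 h of BMH-21 turned to -0.015 and -0.067. With libraries centred on their medians, 1 rose and 19 fell at 8 h of BMH-21, 3 rose and 2 fell from 4 to 8 h of BMH-21, and the contrast gave 8 higher. All-gene shares beside these counts were 33.3% and 51.3%, 28.3% and 42.2%, and 24.0%. Quantile normalization, chosen after seeing the data, gave 30 lower at 4 h and 1 higher and 30 lower at 8 h of BMH-21, 36 lower at 4 h of CX-5461, 3 and 3 from 4 to 8 h of BMH-21, 18 lower from 4 to 8 h of CX-5461 and 8 and 1 in the contrast. The matching shares of all genes were 42.9%, 33.5% and 50.7%, 44.6%, 31.0% and 37.7%, 28.4%, and 26.0% and 34.7%. Hist1h1c and Hist3h2a were -0.069 and -0.17 at 8 h of BMH-21. The cause of these differences was not tested. With no filter 1 gene rose at 4 h of BMH-21, with only genes above 0 in all libraries 6 fell at 8 h, and an offset of 5 reads gave 1 fall from 4 to 8 h of BMH-21. Summing near-identical genes, also chosen later, leaves fewer features (16): 7 and 3 fell at 4 and 8 h of BMH-21, 8, 9 and 11 at 2, 4 and 8 h of CX-5461, 5, 5 and 10 were higher with BMH-21 at 2, 4 and 8 h, 6 fell from 4 to 8 h of CX-5461 and 8 were higher in the contrast.

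Leaving out 1 library at a time gave 0 to 1 higher and 13 to 15 lower genes at 4 h and 3 to 4 higher and 4 to 12 lower at 8 h of BMH-21, 15 to 15, 16 to 18 and 20 to 25 lower at 2, 4 and 8 h of CX-5461, 11 to 14, 10 to 14 and 18 to 20 higher between inhibitors, with 0 to 1 lower at 4 h, 3 to 9 higher and 0 to 1 lower from 4 to 8 h of BMH-21, 4 to 13 lower from 4 to 8 h of CX-5461 and 10 to 16 higher in the contrast. The 1 rise at 4 h of BMH-21 came without control replicate 3 or BMH-21 4 h replicate 2, the 1 lower gene between inhibitors without CX-5461 4 h replicate 3, and the 1 fall over time without BMH-21 8 h replicate 1.

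The replicate numbers do not pair these libraries, since the deviations of same-numbered libraries correlated by -0.11 to 0.09. A replicate block gave 9 lower genes in place of 10 at 8 h of BMH-21, 15 in place of 16 at 2 h of CX-5461 and 24 in place of 24 at 8 h, and the call of Hist1h2ak at 8 h of BMH-21 was lost (limma adjusted p 0.0505). Precision is limited by depth for genes near a level of 0, such as Hist1h3a (27 to 62 reads).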
